A study of Mus musculus with 3 samples.

Results

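Graft TEa cells that carried Il10 RNA were examined among the TEa CD4+ T cells sorted from mouse heart allografts. TEa cells bear 1 transgenic T cell receptor that recognises a peptide of the BALB/c I-E alpha chain, so the line is directed at 1 donor alloantigen. The members were selected on the Il10 count of each droplet, as follows. A cell was counted as a member when its droplet passed the filter on depth and T cell genes and held at least 1 unique molecular identifier (UMI, a tag that counts 1 captured RNA molecule) of Il10. The filter asked for at least 1000 UMIs, 500 genes, at most 10% mitochondrial UMIs, at least 6 summed UMIs of Cd3d, Cd3e, Cd3g, Trac, Trbc1 and Trbc2, and at most 1 UMI of Lyz2. By this rule 467 of 3990 graft cells were members, which is 11.7% (exact binomial interval at 95%, 10.7% to 12.7%). The other 3523 graft cells, with no Il10 UMI, served as the comparison.

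Naive wild-type TEa cells, or TEa cells lacking Ldha (Ldha-/-), marked by a congenic difference, were given to C57BL/6 recipients that then received BALB/c hearts, and cells were sorted 7 days after transplantation. Wild-type cells came from the heart allograft in 1 library and from the spleen in another, and Ldha-/- cells from the spleen made the third. Every recipient carried a transplant, so no library came from an untransplanted mouse, and how many recipients stood behind each library is not stated in the labels. With 1 library per group and both kinds of graft cell in the same library, no test across animals was possible. No p-value is given, and the intervals cover counting error only. The transferred cells came from 1 receptor-transgenic line, which limits them as a model of a polyclonal response. Whether every sorted cell used only that receptor was not tested.

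Interleukin 10 is a secreted cytokine that acts through the Il10ra and Il10rb receptor chains and STAT3, and it restrains antigen presentation and inflammatory cytokine output by macrophages and dendritic cells. In CD4+ T cells it is made by Foxp3-negative type 1 regulatory (Tr1) cells, by some Th1 and Th2 effectors and by Foxp3-positive regulatory cells. The transcription factors Maf and Blimp-1 (Prdm1) are known to promote Il10 transcription in T cells, and Bhlhe40 is known to repress it.

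The members had a median of 8977 UMIs per cell and the Il10-zero cells 8199, out of 42371660 UMIs in all kept graft cells. Members were found more often among the deepest cells: 48 of them (10.3%) exceeded 3 times the median UMI count of graft cells, against 155 Il10-zero cells (4.40%). Cycling cells, called by at least 2 UMIs of 10 cell-cycle genes after each cell was thinned to 1000 UMIs, made up 15.8% of the members (74 cells) and 8.37% of the Il10-zero cells (295 cells). The gene comparison was therefore repeated at equal depth, where Il10-zero cells were weighted to the members' depth in 10 strata, and without cycling cells. The kept graft cells shared 6 cell barcodes with the kept spleen cells and 13 with those listed for the Ldha-/- library; 3 and 1 of these belonged to members.

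The members carried T cell RNA, as the filter required of all kept cells. Their summed level of 7 T cell genes was 10888 CPM (UMIs scaled to the same library total). Il10-zero cells had 11670 CPM, or 11137 CPM at equal depth. The filter used 6 of these 7 genes, so the summed level was in part set in advance. Cd4, the gene it did not use, was at 128 CPM in the members and 146 CPM in Il10-zero cells. The lowest count of the 6 filter genes in any member was 24 UMIs. Among V beta UMIs, 91.3% (86.8% to 94.7%) were Trbv19 in the members, against 87.1% in Il10-zero cells. Among V alpha UMIs, the Trav14 family held 80.0% and 78.6%. Foxp3, which defines regulatory T cells, was at 2.52 CPM in the members and 2.88 CPM in Il10-zero cells, and 7 members had a Foxp3 UMI. The CD8 genes Cd8a and Cd8b1 summed to 11.6 and 17.9 CPM. The 5 gamma delta genes reached 375 and 408 CPM together. Trdc, the delta constant gene, gave 371 and 402 CPM of this, while the gamma constant gene Tcrg-C1 was at 1.01 and 0.961 CPM.

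RNA of most other cell types was sparse. Of the 13 monocyte or macrophage genes, Csf1r, C1qa and Adgre1 were at 0 in the members. The list summed to 394 CPM against 345 CPM, mostly from Ctss and Cst3. Without 1 barcode rich in class II RNA, described further on, the members stood at 338 CPM. The B cell list summed to 49.8 and 44.3 CPM and was nearly all Ighm, with Ms4a1 and Pax5 at 0 in the members. Platelet genes were at 0, and the neutrophil, mast cell, plasma cell, fibroblast, cardiomyocyte and erythroid lists each summed to under 1 CPM in the members. What part RNA from these cells had in the gene differences below was not tested.

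The Il10 gene lies on chromosome 1, from 131019845 to 131024974 on the plus strand of GRCm38 (GENCODE M21). Most members held little of its RNA: 243 had 1 UMI, 81 had 2 and 143 had 3 or more. The last group held 64.3% of the 1136 Il10 UMIs, and the highest count was 19 UMIs, seen in 3 cells. Cells just inside the threshold, with 1 Il10 UMI, had a median of 8615 UMIs, and the cells just outside it, with none, had 8199. Il10 was thus counted at 191 CPM over the members and 26.8 CPM (25.3 to 28.4) over all graft cells.

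The share of graft cells with an Il10 UMI was not a smooth function of depth. With the graft cells ordered by UMI count and cut into 5 groups of like size, it was 11.5%, 9.64%, 9.16%, 9.89% and 18.3%, with median counts of 5383, 6816, 8243, 10768 and 18958 UMIs. The deepest group (15.7% to 21.2%) lay above the binomial intervals of the other groups, which overlapped each other. When each cell was thinned to 3000 UMIs, leaving out 32 shallower cells, the share was 6.04%, and thinned to 1000 UMIs it was 2.26%.

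**Figure D1:**
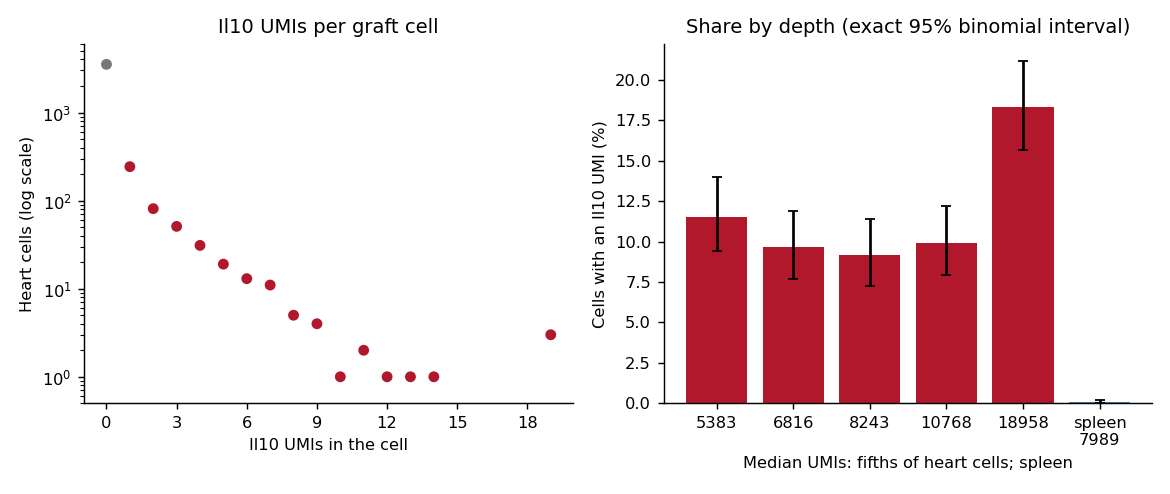
Left, number of graft cells (y axis, log scale) at each Il10 UMI count, with the 3523 cells at 0 in grey and the 467 members in red. Right, percent of cells with an Il10 UMI in 5 groups of graft cells ordered by UMI count and in the spleen, with exact binomial intervals at 95%; the deepest group reaches 18.3% and the spleen 0.107%.

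Spleen TEa cells of the same genotype and day almost lacked Il10 RNA. Of 6556 spleen cells kept by the same filter, 7 had an Il10 UMI (0.107%, 0.0429% to 0.220%), at a median depth of 7989 UMIs. They held 15 Il10 UMIs, 8 of them in 1 cell, for a level of 0.268 CPM (0.150 to 0.442). None of the 7 shared a barcode with a kept graft cell. Organ and library changed together, so they cannot be told apart here.

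Free RNA in the graft suspension also contained Il10. Graft barcodes under 100 UMIs, taken as empty droplets, had 69 Il10 UMIs or 43.0 CPM (33.4 to 54.4), above the 26.8 CPM of kept cells. For 9 genes of other cell types with at least 20 UMIs in those droplets, the level in kept cells was 0% to 15.3% of the empty-droplet level, with a median of 3.79%. These were genes of monocytes, macrophages, red cells and plasma cells. Lyz2, Ctss and Cst3, of the monocyte or macrophage list, also had at least 20 UMIs there (383, 355 and 269) but were left out of the 9. Lyz2, which the filter used, stood at 0.436%, while Ctss stood at 94.2% and Cst3 at 79.7%. For Il10 the kept cells stood at 62.4%. If free Il10 RNA entered kept cells at the median of those 9 percentages it would give 69 of the 1136 Il10 UMIs, and at the highest of them 279, more than the 243 members with a single UMI. How many of the members called by 1 UMI this concerns was not tested. In 19 deep graft barcodes with Lyz2 over 1 UMI and under 6 T cell gene UMIs, no Il10 UMI was found in 223992 UMIs. The exact upper limit of a level of 0 at that depth is 16.5 CPM. Their median depth was 13462 UMIs.

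Across 4623 genes with at least 20 CPM in either group, 119 were at least 1.5-fold higher in the members, which is 2.57% of those tested, and 33 were at least 1.5-fold lower, which is 0.714%. These shares are the background against which members of each gene group are read. Higher genes thus made up 78.3% of the called genes. With totals that leave out mitochondrial, ribosomal protein and Malat1 counts, they made up 67.0%. At equal depth 33 of 4619 genes were higher (0.714%) and 28 lower (0.606%). Without cycling cells 88 of 4533 were higher (1.94%) and 27 lower (0.596%). Higher genes outnumbered lower ones far less at equal depth. In all 3 comparisons together, 21 genes were higher and 21 lower.

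**Figure D2:**
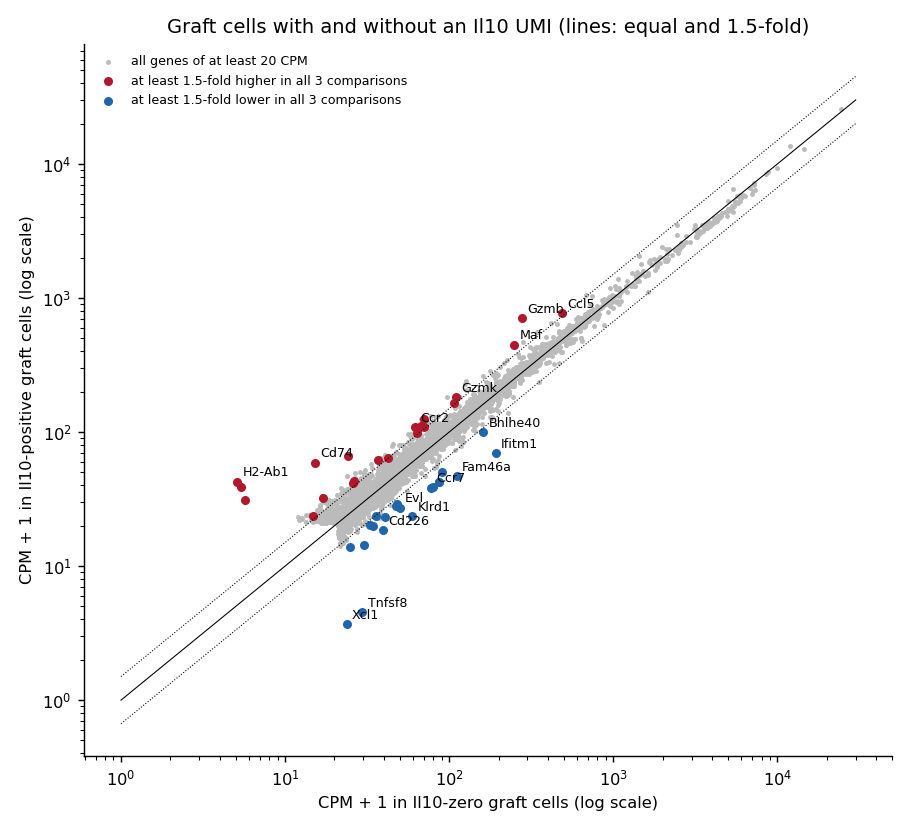
Each point is a gene, with its CPM + 1 in Il10-zero graft cells on the x axis and in Il10-positive graft cells on the y axis, both on log scales; some named genes are labelled. Gzmb (705 against 276 CPM) and Maf (446 against 249 CPM) lie above the diagonal, and Tnfsf8 (3.53 against 28.6 CPM) and Xcl1 (2.69 against 22.7 CPM) below it.

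Maf was among the genes that set the members apart. Maf encodes c-Maf, an activator of Il10, and lies on chromosome 8 from 115682942 to 115707794 on the minus strand. It was at 446 CPM (429 to 463) in the members and 249 CPM (244 to 254) in Il10-zero cells, a log2 ratio of 0.84. The ratio was 0.97 at equal depth and 0.87 without cycling cells. A Maf UMI was seen in 91.6% of the members and 72.0% of the Il10-zero cells. After thinning to 3000 UMIs these shares were 69.7% and 45.8%. The 5 members with most Maf held 4.75% of its UMIs, so the level was spread over many cells.

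Granzyme genes differed in both directions. Gzmb, a serine protease of cytotoxic granules, was at 705 CPM (684 to 727) in the members and 276 CPM (270 to 281) in Il10-zero cells. Its log2 ratio was 1.35, with 1.15 at equal depth and 1.48 without cycling cells. A Gzmb UMI was found in 54.4% of the members and 27.3% of the Il10-zero cells, and after thinning in 43.8% and 19.7%. Gzmk, a granzyme with tryptase-like activity, was at 181 and 108 CPM, with ratios of 0.74, 0.76 and 0.69 over the same 3 comparisons. Gzma went the other way, at 52.3 and 69.9 CPM. Its ratio was -0.41 over all cells, short of 1.5-fold, but past it at equal depth (-0.59) and without cycling cells (-0.73).

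Of the chemokine and chemokine receptor genes, some were higher and some lower. Ccr2, the receptor for Ccl2, was at 108 and 60.8 CPM, with ratios of 0.81, 1.01 and 0.94 over the same 3 comparisons. Ccl5 itself was at 766 and 484 CPM, with ratios of 0.66, 0.90 and 0.84. Ccr7, the receptor that guides T cells to lymph nodes, was lower, at 37.5 CPM against 76.6 CPM, with ratios of -1.01, -1.02 and -1.13.

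Further genes past 1.5-fold in all 3 comparisons covered signalling, the cell cycle and interferon-induced GTPases. Rasgrp2, an activator of the GTPase Rap1, was at 60.9 and 35.7 CPM. Malt1, the paracaspase that links the antigen receptor to NF-kappa B, was at 108 and 69.6 CPM. Cdkn2c, an inhibitor of the kinases Cdk4 and Cdk6, was at 31.1 and 16.1 CPM, and its ratio was 0.91 over all cells, 0.69 at equal depth and 0.73 without cycling cells. Gbp2 was at 96.7 and 62.4 CPM and Gbp3 at 63.1 and 41.2 CPM; these 2 belong to a family of interferon-induced guanylate-binding proteins. Sgk1, a kinase induced by serum and glucocorticoid, was at 22.5 and 13.8 CPM.

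The remaining higher genes need their values by cell. Hspa1a, an inducible Hsp70 chaperone, was at 111 and 65.9 CPM, but 5 cells held 50.5% of its UMIs in the members. An Hspa1a or Hspa1b UMI was equally common in the groups, in 11.8% of members and 11.8% of Il10-zero cells, and reads of these near-identical genes are uncertain between them. Sv2c, a synaptic vesicle glycoprotein gene, was at 40.4 and 25.1 CPM, and Sdcbp2, encoding the scaffold syntenin-2, at 163 and 106 CPM. The transcript 1500009L16Rik, named here after its values were seen, was at 65.1 and 23.1 CPM, with a ratio of 1.46 over all cells, 0.995 at equal depth and 1.68 without cycling cells.

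The 4 highest ratios of all belonged to MHC class II genes and rested on 1 barcode. H2-Ab1, H2-Eb1, H2-Aa and Cd74, which load and present peptide on antigen-presenting cells, were at 41.5, 38.2, 30.3 and 57.9 CPM in the members. In Il10-zero cells they were at 4.09, 4.36, 4.69 and 14.2 CPM. One member held 963 of the members' 998 class II UMIs. That barcode had 49451 UMIs and 5742 genes, with 271 UMIs of Cst3 and 65 of Ctss beside 12 of Cd3e, 12 of Gzmb, 22 of Maf and 5 of Il10. Without it the same genes were at 1.70, 1.02, 0.509 and 2.71 CPM, and the dendritic cell list was at 7.63 CPM in place of 170 CPM. Il10-zero cells with fewer than 3 class II UMIs, the like comparison, had 2.63 CPM of H2-Ab1, 0.587 of H2-Eb1 and 0.503 of H2-Aa, so H2-Ab1 was below them and H2-Eb1 and H2-Aa were not. Barcodes with at least 3 class II UMIs made up 0.214% of the members (1 cell) and 1.08% of the Il10-zero cells (38 cells).

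By log2 ratio of CPM + 1 over all cells, Tnfsf8 was the lowest of the lower genes. It encodes the ligand of CD30, a member of the TNF family, and lies on chromosome 4 from 63831308 to 63861347 on the minus strand. It was at 3.53 CPM (2.19 to 5.40) in the members, from 21 UMIs in 8 cells, and at 28.6 CPM (26.9 to 30.4) in Il10-zero cells. Its log2 ratio was -2.71, with -2.90 at equal depth and -2.40 without cycling cells. Another TNF-family ligand, Tnfsf11 (RANKL), was at 41.2 and 85.2 CPM, with a ratio of -1.03 over all cells and -0.91 without cycling cells. Xcl1, a chemokine that attracts cross-presenting dendritic cells, was at 2.69 CPM from 16 UMIs in the members and 22.7 CPM in Il10-zero cells. Its ratio was -2.68 over all cells. At equal depth and without cycling cells its ratios, -3.18 and -3.01, were below those of Tnfsf8. Few cells carried Tnfsf8 or Xcl1 in either group: 1.71% and 6.93% for Tnfsf8, 1.28% and 4.46% for Xcl1.

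Klrd1, which encodes the NK cell receptor chain CD94, was at 22.5 and 58.2 CPM, with ratios of -1.33, -1.30 and -1.28. Its partner Klrc1 (NKG2A) was at 3.70 and 13.4 CPM, with a ratio of -1.62 over all cells and -1.82 at equal depth. The members' Klrc1 value came from 22 UMIs in 10 cells, 77.3% of them in 5 cells. For Klrd1, 5 cells held 38.8% of the members' UMIs. Cd226, the activating counterpart of Tigit, was at 17.5 CPM (14.3 to 21.2) and 38.7 CPM (36.7 to 40.7), with ratios of -1.10, -1.17 and -1.16. Tigit was at 12.5 and 8.65 CPM, with a ratio of 0.48 over all cells and 0.61 at equal depth. Amica1, a junctional adhesion molecule-like receptor, was at 13.5 and 29.4 CPM. The costimulatory receptor list as a whole had 12 genes measured, 2 of them lower (Cd226 and Tnfsf11) and none higher. Its median was 0.06, the same as over all genes of at least 10 CPM. Above 0 were 7 of 12, among them Slamf1 at 0.30 and Cd27 at 0.20, beside 4012 of 6377 over all such genes.

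The following genes were also lower by 1.5-fold in all 3 comparisons. Ifitm1, an interferon-induced membrane protein, was at 68.3 and 191 CPM, though 5 cells held 48.5% of its UMIs in the members. Fam46a, a non-canonical poly(A) polymerase gene, was at 45.8 and 110 CPM, with a UMI in 19.9% of members and 24.6% of Il10-zero cells. Ramp3, a partner protein of the calcitonin receptor-like receptor, was at 38.0 and 78.3 CPM, and its relative Ramp1 at 19.2 and 31.9 CPM. Evl, an actin regulator of the Ena/VASP family, was at 26.2 and 49.0 CPM, and AA467197 at 41.5 and 85.6 CPM. Nr4a3, a nuclear receptor induced by antigen receptor signals, was at 48.9 and 88.9 CPM. Pdcd1lg2, which encodes the PD-1 ligand PD-L2, was at 22.4 and 39.6 CPM.

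**Figure D3:**
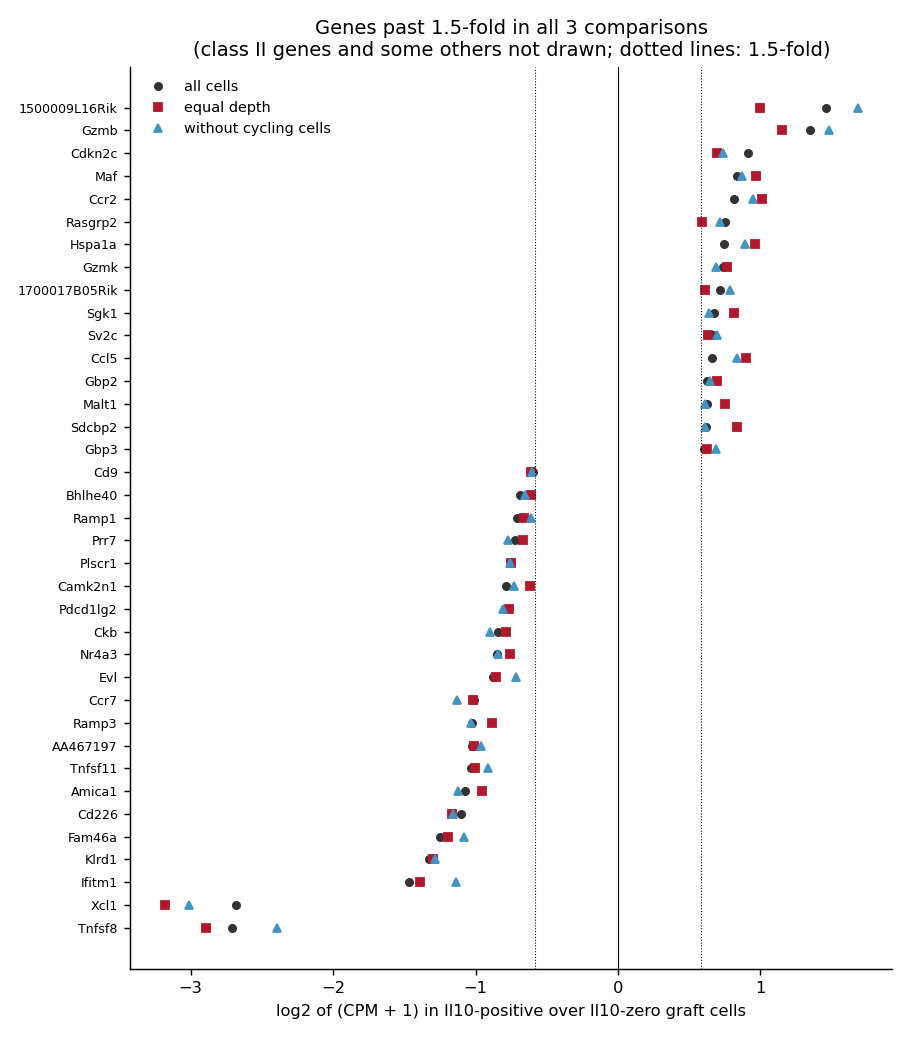
Log2 ratio of Il10-positive over Il10-zero graft cells (x axis) for each gene past 1.5-fold in all 3 comparisons (y axis), over all cells, at equal depth and without cycling cells. Dotted lines mark 1.5-fold, and the 4 class II genes, which rest on 1 barcode, and genes not reported here are not drawn; Tnfsf8 and Xcl1 lie farthest to the left and Gzmb and 1500009L16Rik farthest to the right.

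Several genes were ordered by the number of Il10 UMIs. These classes use the same Il10 count that defined the members. The step from 0 to at least 1 UMI repeats the comparison above and adds no separate support. Maf was at 249 CPM in cells with 0 Il10 UMIs, 394 with 1, 460 with 2 and 522 with 3 or more. The interval at 1 UMI (373 to 417) lay below the interval at 3 or more (490 to 555). Ctla4 ran from 739 through 945 and 1083 to 1177 CPM. Prdm1, a further activator of Il10, was at 14.8, 18.8, 20.6 and 29.6 CPM. Its intervals at 1 UMI (14.3 to 24.3) and at 3 or more (22.3 to 38.4) overlapped. Gzmb changed mostly between 0 and 1 UMI, from 276 to 674 CPM, and was at 683 and 766 CPM above that.

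Other genes fell along the same classes. Tcf7, which encodes the naive and memory T cell factor TCF-1, was at 81.8, 67.9, 61.8 and 27.5 CPM. Pdcd1, which encodes PD-1, was at 242, 213, 183 and 128 CPM, although 52.7% to 54.3% of cells had a Pdcd1 UMI in every class. Cd226 was at 38.7, 23.4, 11.3 and 11.1 CPM. Tnfsf8 was at 28.6, 5.19, 4.12 and 0.528 CPM, the last from 1 UMI in 143 cells. Ifng showed no such order, at 93.3, 102, 40.2 and 125 CPM, nor did Gzmk, at 108, 162, 263 and 172 CPM. Other genes past 1.5-fold were not ordered within the members either. In cells with 1, 2 and 3 or more Il10 UMIs, Cdkn2c was at 33.1, 31.9 and 27.5 CPM and Rasgrp2 at 60.4, 77.2 and 53.3 CPM. Ccr2 was at 101, 99.9 and 123 CPM and Ccr7 at 33.1, 54.6 and 35.9 CPM. The median depths of the classes were 8199, 8615, 10474 and 8979 UMIs in the same order.

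**Figure D4:**
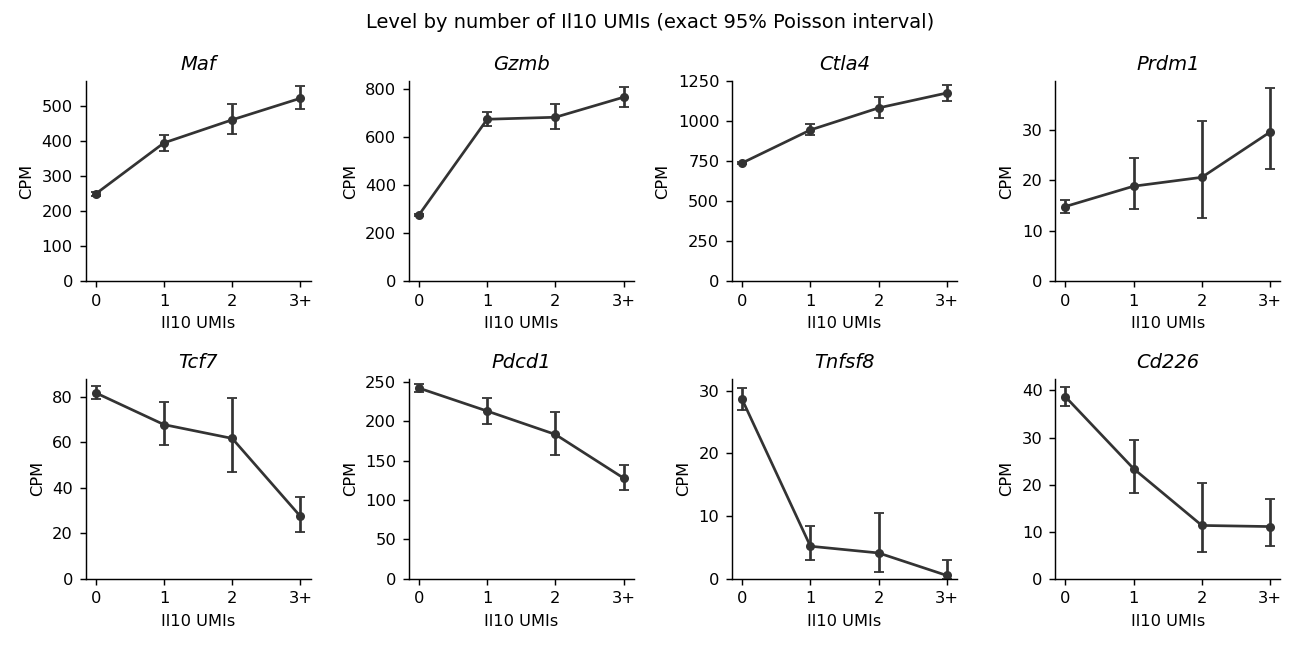
Level in CPM (y axis) of named genes in graft cells with 0, 1, 2 and 3 or more Il10 UMIs (x axis), with exact Poisson intervals at 95%. Maf reaches 522 CPM and Tcf7 drops to 27.5 CPM in the class of 3 or more.

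Gene groups were counted over members with at least 10 CPM in either group, where 3.12% of 6377 genes were at least 1.5-fold higher and 0.753% lower, with a median ratio of 0.06. At equal depth the same genes gave 0.800% higher and 0.612% lower, with a median of 0.04. The Tr1 list had 15 of 19 genes measured, 4 of them higher, with Maf, Gzmk and Ccl4 among them, and 1 lower (Cd226). Its median was 0.25, with 13 of 15 above 0, beside 4012 of the 6377 genes. At equal depth 5 were higher, Prdm1 and Tigit among them but not Ccl4 (0.19), and 1 was lower. The median there was 0.26, with 12 of 15 above 0, beside 3864 of the 6377. Lag3, an inhibitory receptor that marks Tr1 cells, was at 87.6 and 73.6 CPM, a ratio of 0.25. Itga2, which encodes the Tr1 marker CD49b, was too low for the count, at 2.69 and 1.45 CPM, and Havcr2 (TIM-3) was at 11.1 and 10.9 CPM.

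Known regulators of Il10 transcription mostly differed little. Of 24 measured, only Maf was called higher and only Bhlhe40 lower over all cells, on ratios of CPM + 1, and the median was 0.06. Prdm1 fell just short on that scale, at 0.575 against a limit of 0.585, though its plain ratio of CPM was 1.52. Bhlhe40, the repressor, was at 98.9 CPM in the members and 160 CPM in Il10-zero cells, with ratios of -0.69, -0.61 and -0.65. At equal depth Prdm1 and the Ikaros-family gene Ikzf3 also passed, with ratios of 0.63 and 0.59. Stat3 was at 144 and 177 CPM, and Ahr, Nfil3 and Gata3 had ratios of 0.03, 0.11 and -0.04. None of 7 genes of the IL-10 receptor and its signalling passed. Il10ra, the ligand-binding chain, was at 8.91 and 10.2 CPM and Il10rb at 35.8 and 36.7 CPM. Among receptors of IL-27 and IL-12, Il12rb1 was at 16.3 and 10.5 CPM and was the only one of 5 called over all cells. Il6st had a plain ratio of CPM of 1.51 but was not called on CPM + 1, at 0.55. At equal depth Il12rb1 had a ratio of 0.54, and Il6st, the shared chain gp130, passed instead with 0.62. Il27ra had a ratio of 0.08.

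Of 9 effector cytokines measured, none was higher and 2 were lower, Tnfsf8 and Tnfsf11, with a median of -0.27. Ifng, the defining Th1 cytokine, was at 99.1 CPM (91.2 to 107) and 93.3 CPM (90.2 to 96.5), a ratio of 0.09, or 0.15 at equal depth. Il4 and Il17a were too low for the count but had higher values in the members. Il4 was at 6.90 and 0.412 CPM, from 41 UMIs in 8 members, 25 of them in 1 cell. Il17a was at 7.74 and 2.36 CPM, from 46 UMIs in 3 members, 39 of them in 1 cell. An Ifng UMI was present in 37.0% of members and 28.6% of Il10-zero cells. Cd40lg, the T cell help ligand, was at 22.2 and 31.2 CPM, and Tgfb1 at 195 and 229 CPM. Of 18 Th1 genes, 4 were higher, with Il12rb1, Ccl5 and Ccr2 among them, and none lower. At equal depth 3 were higher, with Ccl5 and Ccr2 among them. The Th1 master regulator Tbx21 had a ratio of 0.08 and Cxcr3 0.05. Of the Th2 and Th17 list, only Gata3 and Rora reached 10 CPM.

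Chemokines were few, with 4 of 10 measured. Ccl3, Ccl4 and Ccl5 were higher and Xcl1 lower over all cells, with a median of 0.70. In the members 5 cells held 94.2% of the 69 Ccl3 UMIs and 82.7% of the 375 Ccl4 UMIs, and 16.6% of those of Ccl5. At equal depth Ccl4 no longer passed, with a ratio of 0.19. Ccl3 and Ccl4 had ratios of -0.80 and -0.98 when members were limited to cells with at least 2 Il10 UMIs. In the cytotoxic list, 2 of 11 were higher, Gzmb and Gzmk, and 3 lower, Klrc1, Klrd1 and Serpinb9, with a median of -0.41. Serpinb9, an inhibitor of granzyme B, was at 24.1 and 37.1 CPM. Prf1, which encodes perforin, was at 2.02 and 0.796 CPM and too low for the count.

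Inhibitory and regulatory receptors did not move as a block. Of 12 inhibitory and exhaustion genes, none was higher and 3 lower (Tox, Nr4a3 and Cd200), with a median of -0.19. Ctla4, which competes with CD28 for its ligands, was at 1042 and 739 CPM, a ratio of 0.49, or 0.54 at equal depth, and was seen in 97.0% of members. Pdcd1 was at 181 and 242 CPM, a ratio of -0.42. Of 14 regulatory T cell genes, none was higher and 1 lower, Nrp1, at 21.7 and 36.1 CPM. Izumo1r, folate receptor 4, was at 266 and 197 CPM, short of the limit over all cells with a ratio of 0.43. Among naive and stem-like genes, Ccr7 and Tcf7 were lower, 2 of 13. Tcf7 did not pass at equal depth (-0.51) or without cycling cells (-0.54). The list median was 0.15, or 0.23 at equal depth, beside 0.06 and 0.04 over all genes of at least 10 CPM. Over all cells 8 of 13 were above 0, beside 4012 of 6377 such genes. Klf2 and S1pr1, which guide egress from tissue, had ratios of 0.48 and 0.46.

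Activation, stress and metabolic lists gave few calls. Of 24 genes of the receptor response, 1 passed, Nr4a3, and the median was 0.01. No gene of the TGF-beta pathway (11 measured), the secretory pathway (18), the unfolded protein response (13) or HIF targets outside glycolysis (13) passed. None of 17 glycolysis genes passed either, with a median of 0.17 over all cells and 0.08 at equal depth. Ldha, which converts pyruvate to lactate and is the gene deleted in another library, was at 1218 and 1024 CPM, a ratio of 0.25, or 0.08 at equal depth. Of 13 interferon gamma response genes, Gbp2 passed, while Gbp7 and Gbp5 had ratios of 0.50 and 0.53. Type I interferon genes had 2 of 11 lower, Ifit1 and Ifit3, and none at equal depth.

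Proliferation genes were the group that changed most with depth. Of 22 measured, 18 were at least 1.5-fold higher over all cells, with a median of 0.73, and none passed at equal depth, where the median was 0.16. Mki67, a marker of dividing cells, was at 181 and 96.4 CPM, a ratio of 0.90 over all cells and 0.34 at equal depth. Without the cells called as cycling the median was 0.77. Members made up 20.1% of cycling cells and 10.9% of other cells, and 16.7% of other cells at the cycling cells' depth. Cycling cells had a median of 19509 UMIs and other cells 7924.

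**Figure D5:**
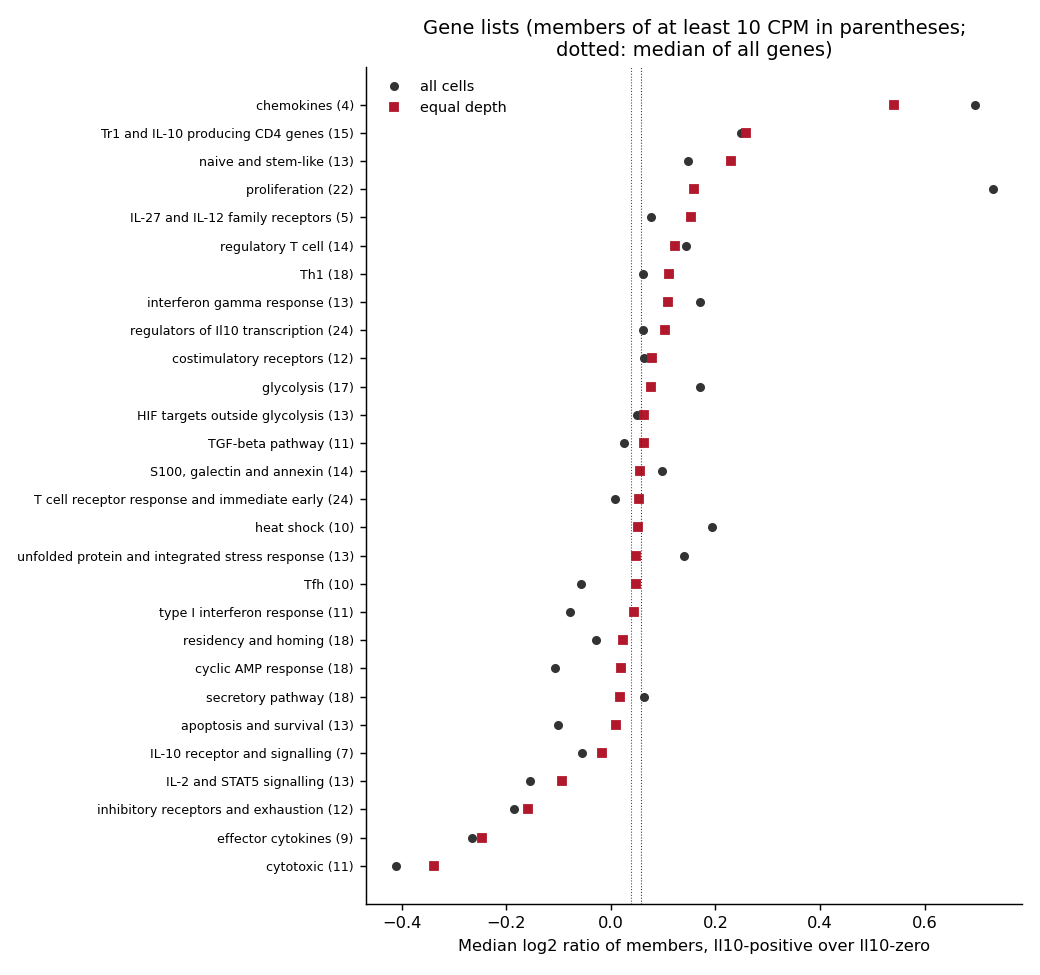
Median log2 ratio (x axis) of each gene list (y axis) over all cells and at equal depth. The proliferation list moves from 0.73 to 0.16, while the Tr1 list stays at 0.25 and 0.26.

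Seen from the other side, the share of graft cells with Il10 differed with what else the cell expressed. An Il10 UMI was present in 14.4% of cells with Maf and 3.81% of cells without it, or 3.67% at the same depth. It was present in 20.9% of cells with Gzmb and 7.68% without (8.37% at the same depth), and in 16.5% with Gzmk and 8.55% without. For Lag3 the shares were 15.7% and 9.21%. For Pdcd1 they were 11.7% and 11.7%, and for Hspa1a or Hspa1b 11.7% and 11.7%. Cells with Bhlhe40 had Il10 in 9.90% and cells without it in 14.0%, and cells with Tcf7 in 9.83% against 12.7%. Of 43 cells with Foxp3, 7 had Il10, 16.3% with an interval of 6.81% to 30.7%, which includes the 11.7% of cells without Foxp3. At the same depth, cells without the gene had Il10 in 8.93% for Gzmk, 9.84% for Lag3, 12.8% for Pdcd1 and 12.3% for Hspa1a or Hspa1b. For Bhlhe40 this share was 15.9%, for Tcf7 13.4% and for Foxp3 13.5%.

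Pairs of genes split the graft cells further, and 6 pairs were computed. Of 1010 cells with both, 243 had Il10 (24.1%, 21.5% to 26.8%), at a median of 9633 UMIs. With Maf alone the share was 9.46% of 1956 cells, with Gzmb alone 5.37% of 205 cells (2.71% to 9.40%), and with neither 3.42% of 819 cells. The cells with both thus held 52.0% of all members, though they were 21.8% of the Il10-zero cells. Gzmb with Gzmk gave 24.6% of 633 cells, at a deeper median of 11188 UMIs. Among cells with Maf, Il10 was found in 17.2% without Bhlhe40 and 12.2% with it, although the former were shallower, at 7692 against 9205 UMIs. Ifng and Il10 were both present in 173 graft cells, and 111 of those also had Gzmb.

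Levels in the spleen library place the 2 kinds of graft cell on a common scale. Gzmb was at 53.1 CPM in spleen cells, 276 in Il10-zero graft cells and 705 in members. Maf was at 149, 249 and 446 CPM and Ccr2 at 30.9, 60.8 and 108 CPM in the same order. Of the 15 named higher genes other than the 4 class II genes, 12 had this order of spleen, Il10-zero graft cells and members. Those genes were chosen for a higher level in members than in Il10-zero cells, so only the step from the spleen was open. For that step, 52.7% of 4621 genes tested were lower in the spleen than in Il10-zero graft cells. The full order, with no such choice of genes, held for 34.5%. Rasgrp2, at 145 CPM in the spleen, did not have it. The lower genes divided. Tnfsf8 ran from 86.5 through 28.6 to 3.53 CPM, Cd226 from 45.5 through 38.7 to 17.5 CPM and Ccr7 from 109 through 76.6 to 37.5 CPM. This order was seen in 6 of the 21, which were likewise chosen for a lower level in members. For the open step, 47.3% of the genes tested were higher in the spleen than in Il10-zero graft cells. The full order held for 17.2% of the genes tested. Klrd1, Xcl1 and Ifitm1 were instead highest in Il10-zero graft cells, with 7.78, 0.357 and 9.34 CPM in the spleen. Tcf7 was at 441 CPM in the spleen, 81.8 in Il10-zero graft cells and 54.0 in members.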

How the data were processed

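Droplet libraries were made with a 10x 3' version 3 kit, per the labels' protocols, which speak of nuclei although sorted cells are described. The deposited values are whole UMI counts of each gene in each barcode. Cell Ranger 3.0.2 made the heart and spleen matrices, per the file headers. Seurat 4.0.0, the build mm10 and Cell Ranger 7.0.0 appear in the submitters' processing notes. The Ldha-/- matrix carried no gene names and was used only for its barcodes. From the counts, cells were filtered as stated in the report, and counts were summed over cells as CPM. Log2 ratios are of CPM + 1, which understates changes of low genes. A gene was called at 1.5-fold, with no p-value. Equal depth weighted Il10-zero cells in 10 UMI strata. No doublet caller was run; cells over 3 times the median UMI count were left out as an alternative. Named genes were the 12 highest and 12 lowest ratios past 1.5-fold in all 3 comparisons, leaving out unnamed and receptor genes, plus set genes and up to 4 per list. Members, lists and named genes were chosen with earlier results of these data known. On simulated counts of 4428 genes for this comparison, 100% of 2-fold changes were recovered at equal depth and 0 of 4228 unchanged genes were called. Over pooled cells 99% of raised and 97% of lowered genes were recovered and 14 unchanged genes were called. The simulated counts were Poisson draws that varied between cells with depth only, and no change of 1.5-fold was simulated. These rates therefore do not cover genes whose RNA sits in a few cells. PCR reads were collapsed to UMIs by the authors, and intervals are exact Poisson or Clopper-Pearson. Python 3.11.15, numpy 2.4.6, scipy 1.17.1 and pandas 2.3.3 were used. Other alternatives were other Il10 and depth cuts, floors, totals and cell filters. Results of some genes are not reported here.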

Additional observations from a re-analysis of the deposited data

Results flagged for a closer look

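Il10 RNA also appeared in graft barcodes outside the main comparison. The 77 depth-passing graft barcodes with Lyz2 over 1 UMI, left out by the filter, held 35 Il10 UMIs, or 14.8 CPM (10.3 to 20.5), and 14 of them (18.2%) had at least 1. Their median depth was 26551 UMIs, against 8244 UMIs in the kept graft cells. The 19 of them with under 6 T cell gene UMIs had none, so every one of these Il10 UMIs was in a barcode that also held T cell RNA. No spleen barcode with Lyz2 over 1 UMI held Il10, among 5.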

How the results depend on the processing

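No paired analysis was possible because each group has 1 library. The 119 genes higher in the members became 33 at equal depth and 35 at equal depth without cycling cells. Another 3 settings at equal depth, chosen after seeing the data, gave 29 without cells with at least 3 class II UMIs, 58 with at least 2 Il10 UMIs, and 42 without the deepest cells (over 3 times the median). With Il10 called on cells thinned to 3000 UMIs there were 213 higher and 128 lower genes, against 33 lower over all cells, from fewer members. A floor of 50 CPM gave 59 and 14, no floor gave 446 and 321, and totals without mitochondrial, ribosomal protein and Malat1 counts gave 62 lower. The share of 11.7% was 2.26%, 6.04% and 8.02% at 1000, 3000 and 5000 UMIs and 5.61% with at least 2 Il10 UMIs. With at least 2 Il10 UMIs the median of the chemokine list changed sign, to -0.20, and to -0.33 at equal depth. Ccl3 (-0.80 and -1.05) and Ccl4 (-0.98 and -1.49) turned with it; the cause was not tested. The proliferation median was -0.12 with the thinned call, with Cenpf at -0.15, Ccnb1 at -0.37 and Birc5 at -0.15. The class II genes depended on the 1 barcode. Without the deepest cells H2-Ab1 was -0.89, H2-Eb1 -1.03, H2-Aa -1.75 and Cd74 -2.01, and also at equal depth -0.91, -1.24, -2.08 and -2.27. With the thinned call H2-Ab1 was -2.88, H2-Aa -2.43 and Cd74 -1.74. Without cells with a myeloid or Cd74 UMI H2-Ab1 was -0.51 and H2-Aa -0.14. Without class II cells H2-Ab1 was -0.43 and Cd74 -0.34, and also at equal depth -0.39 and -0.29, while H2-Eb1 stayed at 0.35 and 0.40 and H2-Aa at 0.01 and 0.09. The 12 lower genes named by rank kept 1.5-fold in every setting run except the thinned call, where 10 did. Of the 12 higher genes, which include the class II genes, 6 kept it with the thinned call, 7 without the deepest cells (also at equal depth), 7 without cells with a myeloid or Cd74 UMI, 8 without class II cells (7 at equal depth), 9 when cells were thinned to 3000 UMIs, and 11 or 12 in the other settings run.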

Other observations

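Other gene groups held few genes past 1.5-fold. In the residency and homing list, 2 of 18 measured genes were higher, Ccr2 among them, and 2 lower, Ccr7 and Rgs16, with a median ratio of -0.03. Rgs16, which damps chemokine receptor signals, was at 138 CPM in Il10-positive and 229 CPM in Il10-zero graft cells, while Cxcr6, a receptor of tissue-resident T cells, had a ratio of -0.57. Itgae, which encodes the CD103 chain, was at 46.3 and 60.8 CPM. In the IL-2 and STAT5 list, Socs2, a feedback inhibitor of cytokine signals, was higher at 48.1 and 29.2 CPM, and Stat5a was lower at 45.6 and 70.1 CPM. Neither passed at equal depth.

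Of 14 S100, galectin and annexin genes, Anxa1 was lower, at 7.06 and 14.0 CPM. Lgals3, which encodes galectin-3, was at 384 and 261 CPM and passed at equal depth, with a ratio of 0.60. S100a4 was at 1111 and 1619 CPM, a ratio of -0.54. Among survival genes, Fas, a death receptor, was lower at 16.8 and 26.4 CPM. The anti-apoptotic genes Bcl2a1b (633 and 875 CPM) and Bcl2a1d (477 and 645 CPM) are near-identical copies, so reads between them are uncertain. In the follicular helper list, Maf and Angptl2 were higher and Cd200 lower, 3 of 10 measured.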
